A study of Homo sapiens with 2 samples.

Results

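The complement components and regulators described here are 9 genes, C1R, C1S, C2, C3, CFB, CFD, CFI, SERPING1 and CD55, of the 21739 genes that could be named on the array through their RefSeq accessions. They were chosen by name as members of the pathway, with their ratios of periostin siRNA to control siRNA on these same arrays already known, so those ratios are given as a description and support no test. RNA came from MRC-5 cells, a standard cell line of fibroblasts from human fetal lung, of which 1 culture was transfected with control siRNA and 1 with periostin siRNA. The siRNAs were ON-TARGET plus oligonucleotides. The periostin siRNA was given at 10 nM for 48 h, and the dose of the control siRNA is not given for the array experiment in the sources used here. Each RNA was read on 1 Agilent single-colour expression array, and the arrays shared a slide and a scan. The study asked which genes depend on periostin, a secreted matrix protein encoded by POSTN, in lung fibroblasts. Of the 9 genes, C3 and CFB were higher with periostin siRNA by more than 3-fold, SERPING1 was lower by 2.53-fold, C1R, C1S, C2, CFD and CD55 lay within 2-fold, and CFI was not well above background on either array.

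Complement is a cascade of plasma and cell surface proteins that marks particles for uptake, attracts leukocytes and opens pores in membranes. The classical pathway starts when C1q binds and the proteases C1r and C1s cut C4 and C2, the lectin pathway reaches the same step through collectins or ficolins and their MASP proteases, and the alternative pathway amplifies C3 cleavage through factor B and factor D. All routes meet at C3, and soluble and membrane-bound inhibitors limit each step. The liver makes most of the plasma proteins, while fibroblasts and other stromal cells secrete part of them locally. Interferons, through STAT factors that bind GAS elements and STAT and IRF factors that bind ISRE elements, are known inducers of several complement genes, CFB among them.

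Promoters of 6 of the 9 genes, C1R, C2, CFB, CFD, CFI and CD55, were in the RefSeq promoter table (GRCh38.p14), which holds 300 bases for each start, 250 before it and 50 from it on. These were searched on both strands for GAS, spelled TTCNNNGAA, for ISRE, spelled GAAA, any 2 bases and GAAA, and for a kB site, spelled GGG, any 3 bases and TTCC. Counted from the start, CFB held a GAS match at -92 to -84 and an ISRE match on the opposite strand at -140 to -131, and the matches did not overlap. C1R held a GAS match at 1 of its 2 starts, C2, CFD, CFI and CD55 held none of the 3 motifs, and no kB match was found in the 6 genes. Among all 35116 listed promoters, 7.66% held the GAS letters, 3.57% the ISRE letters, 6.52% the kB letters and 0.439% both GAS and ISRE. A match is a description of letters and not of a bound site. Whether the matches bear on the ratios was not tested, and C1R, with a GAS match, had a log2 ratio of -0.08. The 250 bases before the start are shown for the pair of alternative pathway proteases, CFB (chr6:31945845-31946094, plus strand) and CFD (chr19:859414-859663, plus strand). Capitals mark the ISRE match, read here on the strand opposite to the motif, and after it the GAS match.
CFB: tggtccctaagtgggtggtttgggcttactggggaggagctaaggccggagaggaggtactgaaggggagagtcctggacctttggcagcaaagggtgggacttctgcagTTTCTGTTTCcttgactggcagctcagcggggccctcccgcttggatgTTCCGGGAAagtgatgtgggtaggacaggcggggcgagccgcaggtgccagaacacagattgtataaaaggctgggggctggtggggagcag
CFD: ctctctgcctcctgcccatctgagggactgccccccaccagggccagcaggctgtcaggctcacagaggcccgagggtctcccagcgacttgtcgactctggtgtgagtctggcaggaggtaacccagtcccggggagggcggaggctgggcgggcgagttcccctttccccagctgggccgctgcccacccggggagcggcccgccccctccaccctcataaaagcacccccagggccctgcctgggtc

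Signals are background-subtracted spot intensities scaled to a common 75th percentile over 58717 spots, so they have an arbitrary unit, and because probes differ in how well they bind, a signal is compared only with that of the same probe on the other array. Since each condition is 1 culture on 1 array, no p-value is given. The error after ± is the propagated error of a single spot on the log2 scale, unless it is named as an SD over 10 spots, and neither covers the difference between cultures. POSTN, the target of the siRNA, was 9.43-fold lower with periostin siRNA by its single spot, from 2638 to 280, a log2 ratio of -3.24 ± 0.20. A ratio of periostin siRNA to control siRNA could be given for 16050 genes, with a median log2 ratio of 0.06. Of these genes 3.37% were higher and 2.75% were lower by more than 3-fold, the threshold of the study. The 10 fibroblast markers were all well above background, with log2 ratios from -0.54 for COL1A1 to 0.83 for LUM.

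The 9 genes were read by 16 probes, each printed once. Both arrays had 12 of the probes well above background, 2 were so on a single array and 2 nowhere, and none carried an outlier flag. For each gene the brightest probe gave the ratio. It could be given for 8 genes, all measured on both arrays, of which 6 had a log2 ratio above 0 and 2 below 0, with a median of 0.48. Past 3-fold, 2 of the 8 were higher and none lower, beside the 3.37% and 2.75% of all genes. Past 2-fold, 2 were higher and 1 was lower, beside 7.97% and 6.42% of all genes. Every gene with several probes well above background on both arrays gave ratios of one sign on them except C1R, whose ratios lay on either side of 0 within their errors.

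**Figure D1:**
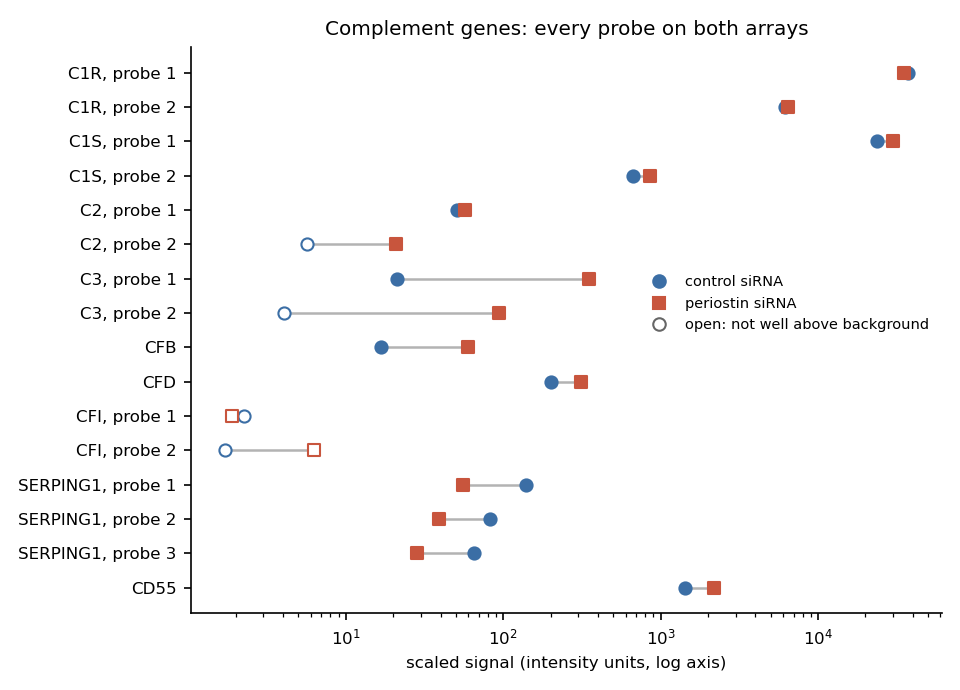
Scaled signal of each of the 16 probes of the 9 complement genes on a log axis, with circles for the control siRNA array and squares for the periostin siRNA array. Open symbols are not well above background. Both C3 probes and the CFB probe lie farther right with periostin siRNA, and all 3 SERPING1 probes lie farther left.

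C1R and C1S encode the serine proteases of the first complement component and were bright on both arrays. The brighter C1R probe had a scaled signal of 37272 with control siRNA and 35346 with periostin siRNA, which gave a log2 ratio of -0.08 ± 0.20. The other C1R probe went from 6178 to 6451, a log2 ratio of 0.06 ± 0.20, so that C1R differed by less than the error of a spot. C1S had signals of 23613 and 30186, a log2 ratio of 0.35 ± 0.20, and the probe of its other transcript had 664 and 858, a log2 ratio of 0.37 ± 0.20. Both C1S probes were thus higher with periostin siRNA by more than the error of a spot and by less than 2-fold. In the RefSeq order of protein-coding genes on chromosome 12, C1S, C1R and C1RL, a C1r-like protease, are neighbours. C1RL had signals of 443 and 592, a log2 ratio of 0.42 ± 0.20, so the 3 neighbours lay between -0.08 and 0.42.

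Of the 14 genes with this role, C1R and C1S included, 9 had a ratio, with a median log2 ratio of 0.30. None of the 9 was higher and 2 were lower by more than 3-fold, beside 3.37% and 2.75% of all genes. The other 5, the C1q chains among them, were below background on both arrays. The 2 lower ones were collectins of the lectin pathway. COLEC10 had signals of 509 and 132, a log2 ratio of -1.95 ± 0.20, and COLEC11 had 871 and 283, a log2 ratio of -1.62 ± 0.09 (SD over 10 spots). Among genes with a control signal like that of COLEC10 or of COLEC11, 3.21% and 2.98% were lower by more than 3-fold. MASP1, a lectin pathway gene, had 192 and 332 on its brighter probe, a log2 ratio of 0.79 ± 0.20. The probe of another MASP1 transcript was below background on both arrays, at 1.64 and 3.52, so the ratio rests on the brighter probe alone. FCN3, MASP2 and FCN1, all with signals under 25, gave 0.35 ± 0.26, 0.30 ± 0.33 and -0.41 ± 0.28. The initiating genes therefore included both directions, and C1R and C1S were not among those past 2-fold.

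C3, the protein on which all pathways converge, had the largest ratio of the 9 genes. Its brighter probe had a scaled signal of 21.3 with control siRNA and 349 with periostin siRNA, which gave a log2 ratio of 4.04 ± 0.25, or 16.4-fold higher. This was rank 17 among the 16050 genes, counted from the highest ratio. Before background subtraction and scaling, the median pixel of that spot was 51 with control siRNA over a local background of 24, and 338 with periostin siRNA over 23. The control value was thus close to background and the periostin siRNA value was clear of it. The other C3 probe was not well above background with control siRNA, at 4.05, and reached 94.1 with periostin siRNA, so it was at least 12.5-fold higher. Its median pixel was 34 and 126. Both probes therefore gave a higher signal with periostin siRNA, and both had a control signal near the detection limit. Among 1109 genes measured on both arrays with a control signal within 0.5 log2 units of that of C3, 9.11% were higher by more than 3-fold, against 3.37% of all genes.

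C2, the protease that joins C4b to form the classical C3 convertase, behaved otherwise. The brighter C2 probe had signals of 51.0 and 57.3, a log2 ratio of 0.17 ± 0.21, a difference within the error of a spot. The other probe, placed on another transcript, had 5.68 with control siRNA, not well above background, and 20.8 with periostin siRNA, at least 2.75-fold higher. The probes of C2 disagreed in size, and the dimmer one rests on a signal near background. C4 is encoded by C4A and C4B, near-identical neighbours on chromosome 6 that a probe may not tell apart. The C4B probe had signals of 180 and 1962, a log2 ratio of 3.45 ± 0.20, or 10.9-fold higher, and the C4A probe had 13.6 and 81.2, a log2 ratio of 2.58 ± 0.29. C3 and both C4 probes were thus past 3-fold, while the brighter C2 probe was not, and the median over these 4 genes was 3.01. Unlike the C3 and C4A probes, the C4B probe was well clear of background on the control siRNA array too, with a median pixel of 206.5 over 24. Higher by more than 3-fold were 2.72% of 1580 genes with a control signal like that of C4B, and 9.88% of 881 genes like C4A.

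CFB, factor B, provides the protease of the alternative pathway C3 convertase. Its single probe had a scaled signal of 16.8 with control siRNA and 59.7 with periostin siRNA, for a log2 ratio of 1.83 ± 0.27, or 3.55-fold higher, at rank 373 from the highest. The median pixel was 48 over a local background of 25 with control siRNA, and 86 over 24 with periostin siRNA. CFB was therefore dim on both arrays, and among 980 genes of like control signal 10.1% were higher by more than 3-fold. With RefSeq protein-coding genes ordered by start position on chromosome 6, ZBTB12 alone starts between C2 and CFB. The log2 ratios of CFB and C2 were 1.83 and 0.17. CFD, factor D, which cuts factor B, had signals of 202 and 314, a log2 ratio of 0.64 ± 0.20, or 1.56-fold higher. CFP, properdin, which stabilises the convertase, had 39.5 and 58.0, a log2 ratio of 0.55 ± 0.22. All 3 alternative pathway genes had a ratio above 0 and 1 of them was past 3-fold, beside 3.37% of all genes higher by that much.

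**Figure D2:**
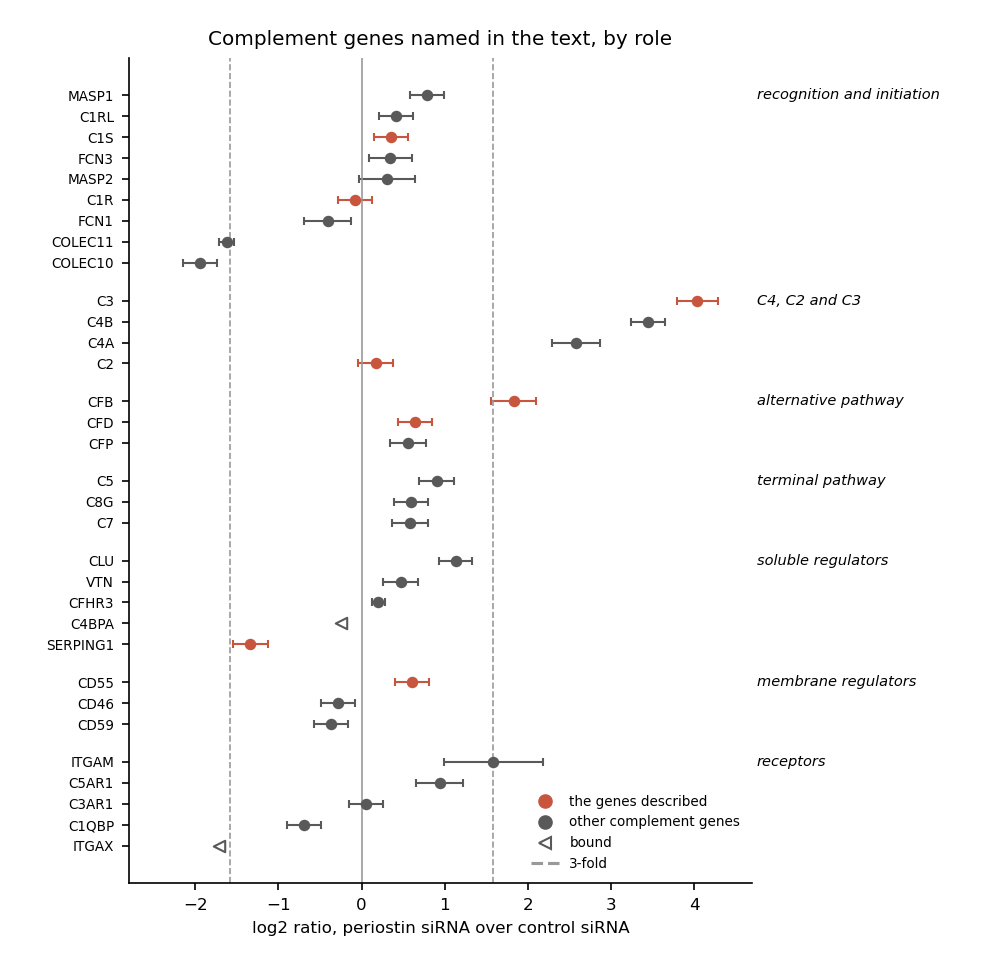
Log2 ratio, periostin siRNA over control siRNA, for the complement genes named in the text that have a ratio, by role, with the genes described here in red and the others in grey. Bars are the propagated error of a single spot or the SD over 10 spots, triangles are bounds with no bar, and dashed lines mark 3-fold. C3, C4B, C4A and CFB lie to the right of the upper line, and COLEC11, COLEC10 and ITGAX to the left of the lower one.

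SERPING1, the C1 inhibitor, which blocks C1r, C1s and the MASP proteases, was the only one of the 9 genes lower by more than 2-fold. Its brightest probe had a scaled signal of 140 with control siRNA and 55.4 with periostin siRNA, for a log2 ratio of -1.34 ± 0.21, or 2.53-fold lower, at rank 628 from the lowest. The other SERPING1 probes had 82.6 and 39.3, a log2 ratio of -1.07 ± 0.22, and 65.0 and 28.2, a log2 ratio of -1.21 ± 0.24. All 3 probes were lower with periostin siRNA, with error ranges that overlapped, and none of them reached 3-fold. Of the proteases that this inhibitor blocks, C1R and C1S were not lower in step, at -0.08 and 0.35.

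CFI, factor I, which cuts C3b and C4b with the help of cofactors, could not be measured. Its probes had scaled signals of 1.71 and 2.26 with control siRNA and of 6.27 and 1.90 with periostin siRNA, none well above background, so no ratio is given. Other soluble regulators were partly measurable. CLU, clusterin, an inhibitor of the terminal complex, had 7632 and 16704, a log2 ratio of 1.13 ± 0.20, or 2.19-fold higher. VTN, vitronectin, gave 0.47 ± 0.21, CFHR3 gave 0.20 ± 0.07 (SD over 10 spots), and C4BPA, a chain of the C4b-binding protein, was well above background with control siRNA alone, at 10.0, and at least 1.18-fold lower. Of the 14 soluble regulators 6 had a ratio, and SERPING1 had the lowest of them.

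CD55, or decay-accelerating factor, is a membrane protein that takes C3 convertases apart. Its single probe had a scaled signal of 1425 with control siRNA and 2172 with periostin siRNA, for a log2 ratio of 0.61 ± 0.20, or 1.52-fold higher. The other measured membrane regulators had ratios below 0. CD46, a cofactor of factor I, had 295 and 243, a log2 ratio of -0.28 ± 0.20, and CD59, which blocks the membrane attack complex, had 1470 and 1143, a log2 ratio of -0.36 ± 0.20. CD55 was thus higher and CD46 and CD59 were lower, each by more than the error of a spot and by less than 2-fold. CR1, CSMD1 and SUSD4 were below background on both arrays.

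**Figure D3:**
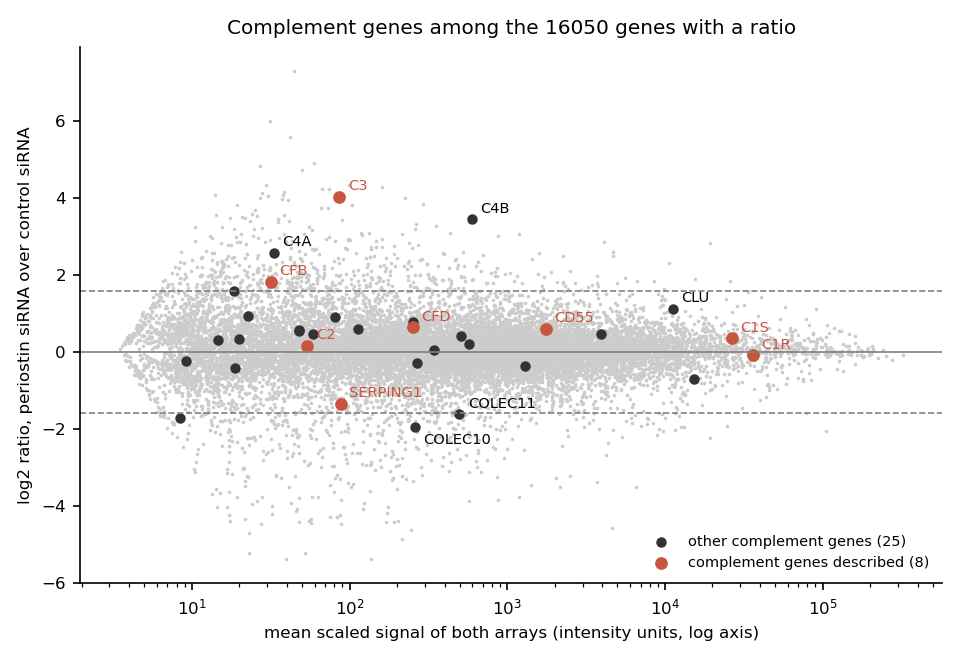
Log2 ratio, periostin siRNA over control siRNA, against the mean scaled signal of both arrays (log axis) for the 16050 genes with a ratio, in light grey, with 8 of the genes described here in red and 25 other complement genes in black. Dashed lines mark 3-fold. C3 and CFB lie among dim genes, where the ratios of all genes spread more widely, and C1R and C1S among bright ones.

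Over the other 49 complement genes, 25 had a ratio and 24 were below background on both arrays, with scaled signals of at most 4.84 and 5.62. The median log2 ratio of the 25 was 0.42, with 17 above 0 and 8 below 0. Past 3-fold, 2 were higher, C4A and C4B, and 3 were lower, COLEC10, COLEC11 and ITGAX, beside 3.37% and 2.75% of all genes. A probe may not tell C4A from C4B, so these 2 may not be independent. ITGAX and C4BPA were well above background with control siRNA alone, so their ratios could only fall below 0. Among probes well above background on both arrays, 2 of these genes were higher and 2 lower, beside 2.70% and 2.39% of all genes. In the terminal pathway C5 gave 0.91 ± 0.21, C8G 0.59 ± 0.21 and C7 0.58 ± 0.22, and the other 4 of its 7 genes were below background on both arrays. Of the 10 receptors 5 had a ratio. ITGAX, a chain of complement receptor 4, was at 25.6 with control siRNA and not well above background with periostin siRNA, at least 3.29-fold lower, whereas ITGAM, a chain of complement receptor 3, had 10.7 and 32.0, a log2 ratio of 1.58 ± 0.60 (SD over 10 spots). C5AR1 gave 0.94 ± 0.28, C3AR1 0.05 ± 0.20, which turned to -0.08 when the arrays were scaled on their median, and C1QBP, a mitochondrial and surface protein that binds C1q, -0.69 ± 0.20. With the 9 genes included, 33 of 58 complement genes had a ratio, with a median of 0.42. By more than 3-fold, 4 were higher, C4A and C4B among them, and 3 were lower.

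Other cell types that make complement, or carry its receptors, were looked for by their markers. Of 10 hepatocyte markers 7 were below background on both arrays, ALB, TTR and APOB among them. The 3 with a ratio were dim. APOA1 was at 24.9 with control siRNA and 32.1 with periostin siRNA on its brighter probe, and SERPINC1 at 20.5 and 31.0. APOH was well above background with periostin siRNA alone, at 12.4, so its ratio could only lie above 0. Of 7 adipocyte markers, which bear on CFD, ADIPOQ, LEP, PLIN1 and FABP4 were below background on both arrays. The other 3 went both ways, with PPARG at 1770 and 1264, CIDEC at 787 and 530, and LIPE at 528 and 606. Of 10 monocyte and macrophage markers 8 were named on the array and 7 had a ratio, none past 3-fold. Their median log2 ratio of 0.34 is the bound of CD74, which was well above background with periostin siRNA alone, at 9.57. The sign of that bound was thus fixed. CD163 was below background on both arrays, PTPRC was at 17.6 and 25.1, and CD14 and CD68 were at 287 and 549 and at 1528 and 2451. CSF1R went the other way, at 42.1 and 23.7, a log2 ratio of -0.83 ± 0.28 (SD over 10 spots). Thus 6 of the 7 ratios were above 0, the bound of CD74 among them, and 1 was below. Of 10 epithelial and endothelial markers 8 had a ratio, 5 above 0 and 3 below 0, with a median log2 ratio of 0.40. KDR, 1 of those below 0, was well above background with control siRNA alone, at 9.79, so its sign was fixed. Past 3-fold was 1 of them, EPCAM at 34.6 and 135, beside 3.37% of all genes higher by that much. Among genes with a control signal like that of EPCAM, 6.83% were higher by more than 3-fold. KRT19 was at 167 and 342 and TEK at 5457 and 5175. CDH1 and PECAM1 were below background on both arrays. The part of the monocyte and epithelial markers in the complement ratios was not tested. In RNA of a whole culture, more cells of a type and more RNA per cell cannot be told apart.

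The sizes of the dim ratios depended on the background correction. Under normexp, a model-based correction run with an offset of 50, the log2 ratio was 2.20 for C3, 0.59 for CFB and -0.72 for SERPING1, against 4.04, 1.83 and -1.34. C3 stayed past 3-fold under all 10 alternative settings, and CFB under all but normexp. The same correction gave 3.05 for C4B and 0.95 for C4A, and of the lower genes -1.62 for COLEC10, -1.42 for COLEC11 and -0.32 for ITGAX, so that C4A, COLEC11 and ITGAX were no longer past 3-fold. COLEC11, at -1.58, was just short of it without scaling as well. Under normexp 0.892% of all genes were higher and 1.19% lower by more than 3-fold. Averaging the probes of a gene moved C2 most, to 0.82, and the 8 genes with a ratio kept their sign under all 10 settings.

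**Figure D4:**
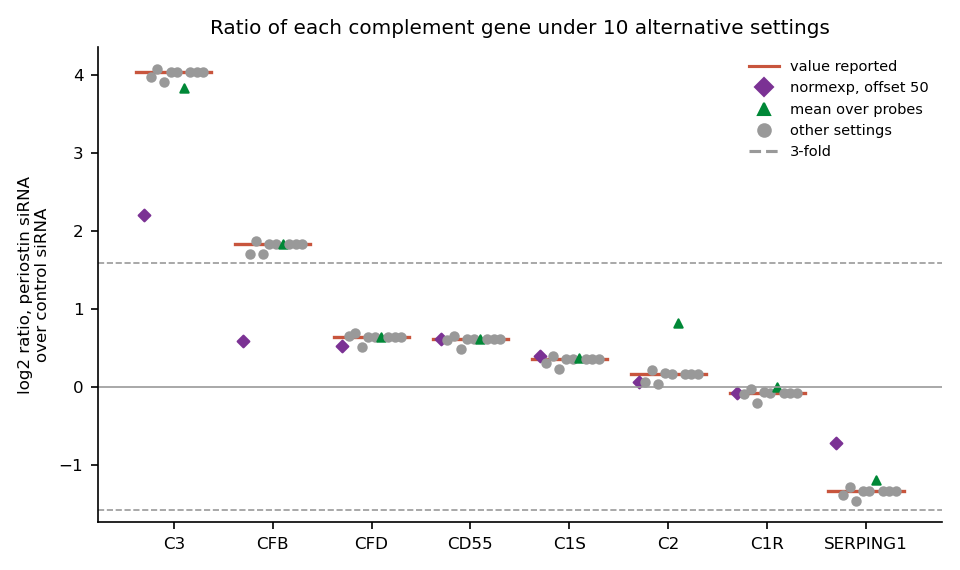
Log2 ratio, periostin siRNA over control siRNA, for the 8 complement genes with a ratio, as reported (red line) and under 10 alternative settings (points), with normexp as diamonds and the mean over probes as triangles. Dashed lines mark 3-fold. Normexp gives 2.20 for C3 and 0.59 for CFB, and the points of CFD, CD55, C1S and C1R lie close to the value reported.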

How the data were processed

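MRC-5 RNA from 1 control siRNA and 1 periostin siRNA culture was measured on 1 Agilent SurePrint G3 single-colour array each. The authors deposited the scanner output, intensity values that Feature Extraction had background-subtracted and detrended (version 11.5.1.1 per the file headers, 12.0.3.1 per the labels), and a table of normalized intensity values. For 100% of 49697 probes printed once, that table equalled the scanner intensity times 1 factor per array, 3.65 and 3.54, within 0.01 log2 units. Its normalization is not named in the sources used here.

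Log2 intensities were scaled to the 75th percentile over 58717 spots, controls left out, which was 372 and 383 before scaling. Well above background on the arrays were 58.0% and 58.9% of spots, and no spot was saturated. The number of arrays limits the precision. Spots of a probe were averaged, and 65.1% of spots were named through RefSeq accessions (GRCh38.p14). The brightest probe stood for a gene. A probe well above background on 1 array alone gave a bound against the higher of its own dim signal and the lowest scaled signal well above background on that array, 7.55 with control siRNA and 7.77 with periostin siRNA. The sign of a bound was thus fixed by the array on which the probe was well above background. Over 667 probes printed 10 times the pooled SD of the log2 ratio between spots was 0.12. No test was possible with 1 array per condition.

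Named in the text are all 9 genes with every probe, the other complement genes with a ratio (1 is counted but not reported here), POSTN, and of the marker and acute phase lists the genes past 3-fold and the defining markers, while other genes of those lists were chosen after their values were seen. The members and lists were chosen with earlier results of these data known. Rank, and the share past 3-fold among genes of like control signal, stand in for likeness of pattern, which 2 arrays cannot give. Python 3.11.15 with pandas 2.3.3 and numpy 2.4.6, and R 4.3.3 with limma 3.58.1 for normexp on the median pixel, were used. The steps were tested on simulated data in which only bright genes were changed, so changes of dim genes and bounds were not covered. Alternatives were normexp, quantile, median, no scaling, scaling on spots well above background on both arrays, the authors' table, the mean over probes, filters on dim and flagged spots, and 2-fold and 4-fold thresholds.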

Additional observations from a re-analysis of the deposited data

How the results depend on the processing

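No paired analysis was possible because there was a single array on each side, and no replicate could be left out. Scaling on the median moved the median log2 ratio of all genes from 0.06 to -0.07, and with it the median to 0.35 over the 8 complement genes with a ratio, to 0.29 over the other complement genes, and POSTN to -3.37. Under normexp, where 0.892% of all genes were higher and 1.19% lower by more than 3-fold, 1 of the 9 genes was higher, and of the other complement genes 1 was higher and 1 lower, with a median of 0.21, and POSTN was at -2.99; its offset pulls dim ratios towards 0 by construction. The mean over probes gave a median of 0.62 for the 8 genes with a ratio. Without a filter on dim probes, which adds genes below background, the medians were 0.61 for the 9 genes and 0.044 for the others. At 2-fold, 2 of the 9 genes were higher and 1 was lower, beside 7.97% and 6.42% of all genes. Of the others, 4 were higher and 3 lower at 2-fold. At 4-fold 1 of the 9 genes and 2 of the others were higher and none was lower, and the share of all genes was not counted there. Of the values that answer a comparison, 63 under alternatives stayed within the SD between repeated spots or within 1.5 times the count, 15 moved, and none changed sign. The authors' table could hardly move a value, since it equals the scanner intensity times 1 factor per array for probes printed once. Dim signals limit C3, CFB and the lesser C2 probe, whose control signals were close to background, and CFI could not be measured.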

Other observations

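Acute phase genes, many of which are made in the liver along with complement, were listed as a further group of 20. Of these 12 had a ratio, 7 above 0 and 5 below 0, with a median log2 ratio of 0.24, and 1 was higher and none lower by more than 3-fold, beside 3.37% and 2.75% of all genes. ITIH4, an inter-alpha-trypsin inhibitor heavy chain, had scaled signals of 38.6 with control siRNA and 193 with periostin siRNA, for a log2 ratio of 2.32 ± 0.22, or 4.99-fold higher. A2M, the broad protease inhibitor alpha-2-macroglobulin and a relative of C3 and C4 in sequence, had 2208 and 6255 and was 2.83-fold higher, with an SD of the log2 ratio over 10 spots of 0.05. SERPINA3, an inhibitor of the same serpin family as SERPING1, had 45.0 and 108, a log2 ratio of 1.27 ± 0.21, and HPX, which binds haem, had 18.9 and 42.2, a log2 ratio of 1.16 ± 0.25.

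PTX3, a fibroblast pentraxin that binds C1q, had 10989 and 7610, a log2 ratio of -0.53 ± 0.06 (SD over 10 spots). LBP, which carries lipopolysaccharide, was well above background with control siRNA alone, at 17.7, and was at least 2.28-fold lower. The classical inducible acute phase genes SAA1, SAA2 and CRP, the fibrinogen chains FGA, FGB and FGG, and LCN2 and SAA4 were below background on both arrays. Each of these values rests on 1 array per condition.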
